A study of Solanum pimpinellifolium and Solanum chilense with 12 samples.

Results

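The genes described here lie in the S-locus region of tomato chromosome 1, the stretch of low recombination that holds the locus controlling self-incompatibility. They were taken by number, as every listed gene from Solyc01g054000 to Solyc01g068399 apart from a pair of identifiers that were not used here. This gave 603 genes of the 34,718 with values in the table. The choice used gene numbers and no measured value. Blocks of genes are called here by the first 3 digits of the number after the g, and none of the members is in blocks 054 or 061 to 064.

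In many Solanaceae, self-incompatible pistils refuse their own pollen through ribonucleases made in the style, the S-RNases, which enter pollen tubes and break down RNA there. Pollen carries F-box proteins encoded at the same locus, which work within an SCF ubiquitin ligase, a complex built around a cullin and a Skp1-like protein, to mark the S-RNases of other haplotypes for destruction. The locus sits where chromosomes seldom recombine, so many genes with no part in pollen rejection are inherited with it.

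Styles with their stigmas had been collected from self-incompatible (SI) S. chilense, accession LA0130, and from self-compatible (SC) S. pimpinellifolium, accession LA1585. The 4 groups were SI self-pollinated (SIP), SI unpollinated (SIUP), SC self-pollinated (SCP) and SC unpollinated (SCUP), with pollinated styles taken at 24 h and 3 libraries in each group. Each species is represented by 1 accession, so species, accession and the mapping of reads to the tomato reference cannot be told apart. Pollinated styles can hold pollen and pollen tubes, and in bulk samples fewer cells of a type and less RNA per cell cannot be told apart. The study calls the libraries biological replicates; no source tells of separate plants, so the p-values cover the spread of these libraries alone and that spread may be technical.

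The unit was RPKM, reads scaled to gene length and to the reads counted in the library. Levels can be compared between genes as far as the gene lengths used are right, which was not checked. Reads counted on genes ran from 10,174,283 to 11,330,121 in SIP, 11,650,217 to 11,933,635 in SIUP, 12,926,250 to 13,773,941 in SCP and 13,397,026 to 14,499,207 in SCUP. One read in a gene of 1 kb was worth between 0.0690 and 0.0983 RPKM. The genes' labels were checked only by number: the sources used here do not say which identifiers encode S-RNases or pollen F-box proteins, and the tissue was not checked against style or pollen markers. The libraries SIUP1 and SCUP2 stood apart from the other 2 of their groups in the most abundant members. Values without SIUP1 or SCUP2 are given beside some of the results they touch.

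Fewer genes of the region were expressed in styles than elsewhere in the table. Of the 603 genes, 180 (29.9%) were at 0 in all 12 libraries, against 6866 (19.8%) of all genes and 663 of 3683 (18.0%) on the rest of chromosome 1. Another 238 (39.5%) were above 0 in every library, against 56.2% of all genes. Testing across species needed 1 RPKM or more in 3 or more of the 12 libraries, a condition met by 255 members (42.3%), against 58.4% of all genes and 60.7% of the rest of the chromosome. The remaining 348 members were not tested across species. No read in any library is compatible with up to 3 reads, or 0.0200 RPKM over the 12 libraries for a gene of 1 kb.

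The silent genes were unevenly placed along the region. In blocks 055 to 066, 162 of 466 members (34.8%) met that condition and the median member averaged 0.0818 RPKM over the 12 libraries. In 067 and 068, at the high-numbered end, 93 of 137 (67.9%) met it and the median member averaged 3.61 RPKM. The share was lowest in 056, at 22 of 76 (28.9%), among the blocks with more than 2 members, and highest in 068, at 30 of 38 (78.9%). These shares describe the blocks and were not tested.

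**Figure D1:**
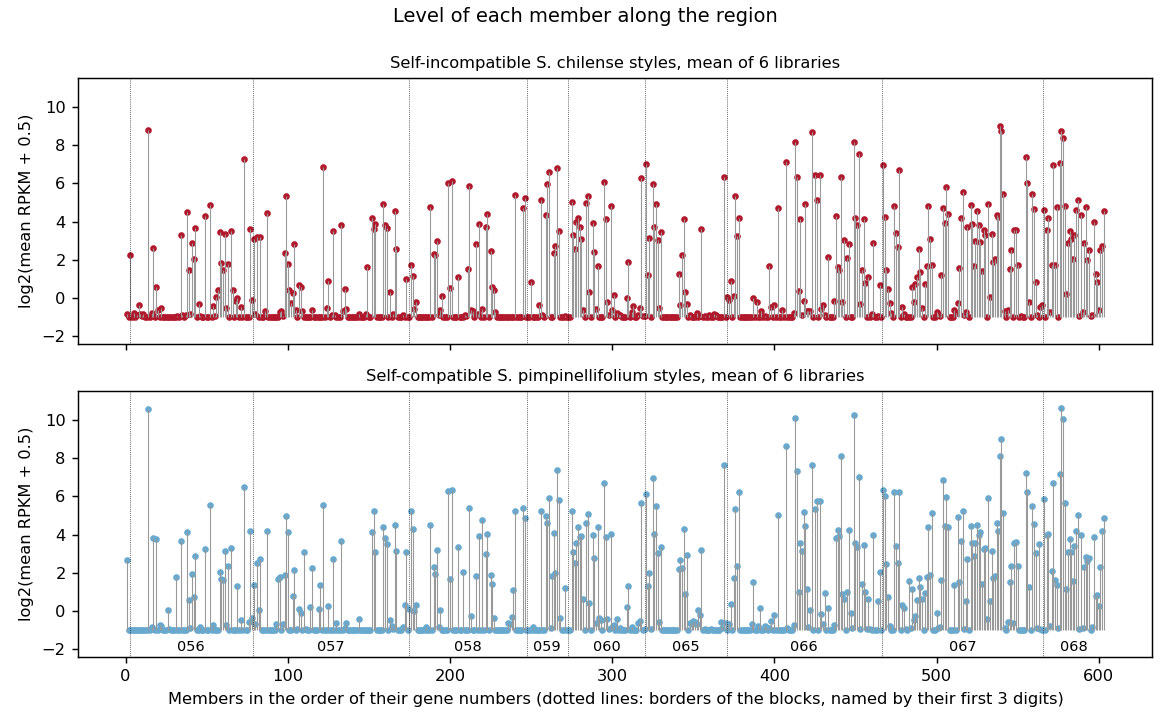
Each point is 1 of the 603 members, placed in the order of gene numbers on the horizontal axis, with its mean level as log2(RPKM + 0.5) over 6 libraries on the vertical axis, SI styles above and SC styles below. Points on the baseline are genes at or near 0; the baseline thins out in 067 and 068, where 67.9% of members met the testing condition against 34.8% before.

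The 10 members with the highest means held 43.3% to 53.5% of the region's summed RPKM in SIP libraries, 29.9% to 39.9% in SIUP, 60.2% to 63.8% in SCP and 48.2% to 71.0% in SCUP. In SI styles 19 members averaged at least 100 RPKM, 121 at least 10 and 218 at least 1. In SC styles the numbers were 20, 128 and 243. Summed over all members, the region made up 0.749% to 0.939% of the summed RPKM in SIP libraries, 0.595% to 0.724% in SIUP, 1.18% to 1.32% in SCP and 0.971% to 1.58% in SCUP. The share was lower in each SI library than in each SC library. It follows the most abundant members. The 11 genes described below as moving together held 9.46% to 38.6% of the region's sum in SI libraries. In SC libraries they held 42.0% to 66.7%, so the share does not speak for the other members.

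The gene with the highest mean level was Solyc01g068110, at 999.7 RPKM over the 12 libraries. It stood at 499.9, 863 and 446 RPKM in SIP and at 434, 143 and 144 in SIUP, against 1408, 1545 and 1632 in SCP and 982, 2521 and 1378 in SCUP. The SI and SC ranges did not overlap, whereas P and UP overlapped in SC. Solyc01g056310, Solyc01g066810, Solyc01g068120 and Solyc01g066420 followed, with means of 984, 765, 703 and 687 RPKM. None of these 5 carries a function in the sources used here.

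These genes moved together from library to library. With the 255 tested members compared with Solyc01g068110 on log2(RPKM + 0.5) over the 12 libraries, 11 members including Solyc01g068110 itself had a Pearson correlation above 0.95, which is 4.31% of them, against 2.85% of the 20,277 genes tested. This set was chosen after the values were seen, and the 12 libraries share a split by species. Besides the 5 just named it holds Solyc01g066360 and Solyc01g059940, both with pectinesterase and enzyme inhibitor activity among their gene ontology (GO) terms, and Solyc01g066070, Solyc01g067370, Solyc01g059910 and Solyc01g057220, for which no function is given. Pectinesterases remove methyl groups from the pectin of plant cell walls. Within a species the correlations were 0.872 to 0.999 over the 6 SI libraries and 0.889 to 0.997 over the 6 SC libraries. Without SCUP1 and SCUP2, the SC correlations ran from -0.808 to 0.999, so in SC the likeness of some members rests on those libraries. Without SIP2 and SIUP1, the lowest SI correlation was 0.871.

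The set summed to 2365, 3986 and 2179 RPKM in SIP and to 2003, 625 and 673 RPKM in SIUP. It summed to 6475, 7153 and 7494 RPKM in SCP and to 4395, 11256 and 6327 RPKM in SCUP. SIUP1 was thus just below the lowest SIP library, and SCUP2 was above all others. These 11 genes made up between 9.46% and 66.7% of the region's summed RPKM, with the lowest share in SIUP2 and the highest in SCUP2. Near-identical copies could share reads, which was not tested, so the separate levels of these genes are uncertain.

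**Figure D2:**
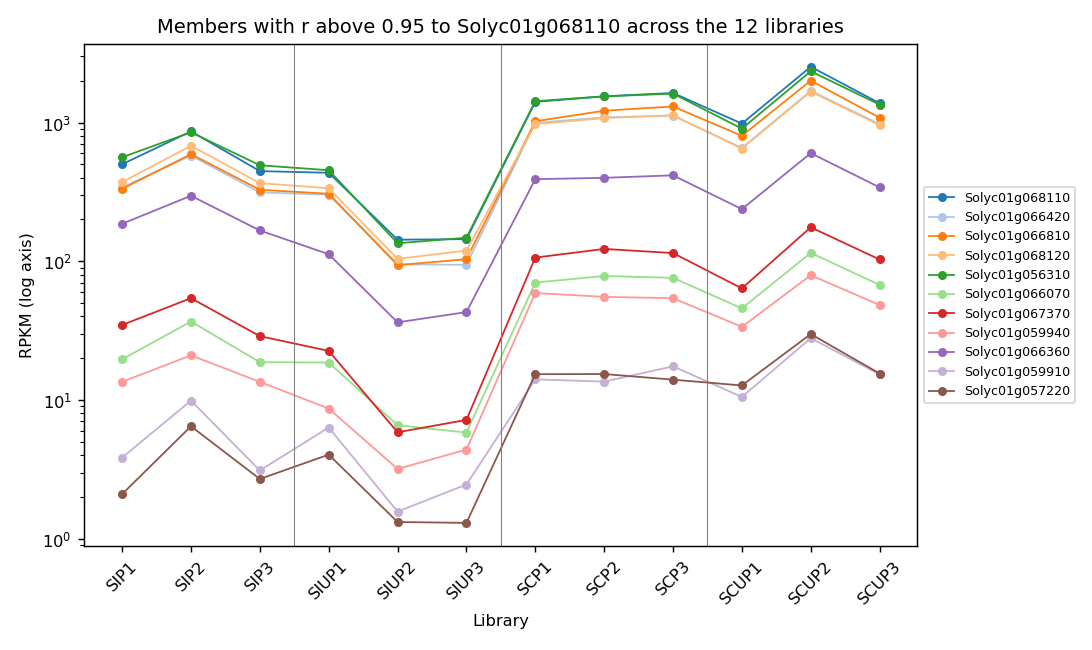
Each line is 1 of the 11 members that vary with Solyc01g068110, with the 12 libraries on the horizontal axis and RPKM on a logarithmic vertical axis. The lines run nearly parallel, dip in SIUP2 and SIUP3, where the summed level was 625 and 673 RPKM, and peak in SCUP2 at 11256 RPKM.

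Within the set no member passed the test for a response to self-pollination in either species. In SC the log2 fold changes ran from -0.27 to 0.15 (limma with Benjamini-Hochberg adjustment, adjusted p 0.617 to 0.981). Without SCUP2 they ran from 0.08 to 0.50, with adjusted p 0.172 to 0.763 and 1 gene at an unadjusted p under 0.05. In SI they ran from 0.65 to 1.89 with adjusted p 0.0601 to 0.473, and without SIUP1 9 of the 11 passed as higher in SIP, with log2 fold changes from 1.09 to 2.46. In that fit 6.77% of all genes passed as higher, and the 11 were chosen because they vary alike, so their counts are not independent. Between the species all 11 passed as lower in SIUP than in SCUP (background 23.8%), by log2 differences from -3.34 to -2.30. Against SCP, 10 passed as lower in SIP (background 25.1%), and the 11 log2 differences ran from -1.99 to -0.94. The set was chosen for following Solyc01g068110, itself lower in SI, over these libraries. These counts between the species were thus largely set by that choice and are no separate evidence.

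Other abundant members were outside that set. Solyc01g067740 stood at 366, 426 and 427 RPKM in SIP and 393, 479.9 and 436 in SIUP, against 507, 721 and 643 in SCP and 319, 532 and 332 in SCUP. It was lower in SIP than in SCP (log2 difference -0.61, adjusted p = 0.0293, limma), while the unpollinated groups overlapped. Its neighbour Solyc01g067730 ran the other way, at 440.1, 530.1 and 519.9 RPKM in SIP and 435, 602 and 565 in SIUP, against 201, 439.8 and 326 in SCP and 234, 237 and 212 in SCUP. It was higher in SIUP than in SCUP (log2 difference 1.22, adjusted p = 0.00172). Solyc01g066720 was lower in SI styles, at 60.6, 52.4 and 54.9 RPKM in SIUP, against 139.8, 202 and 189 in SCUP (log2 difference -1.64, adjusted p = 0.000398). Its levels went partly with Solyc01g068110, with a Pearson correlation of 0.874, below the cut of 0.95, and a rank correlation of 0.951.

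The question of the study was how self-pollination changes the style in each species. In SC styles 16 of the 243 members tested passed at an adjusted p under 0.05, which is 6.58% against a background of 6.89% over all genes. Of these 7 were higher in SCP (background 4.66%) and 9 lower (background 2.23%). In SI styles 10 of 219 passed, which is 4.57% against a background of 3.65%, with 5 higher in SIP (background 2.5%) and 5 lower (background 1.15%). Both shares were near those of the whole table. The condition of 1 RPKM or more in 3 or more libraries was applied to the 6 libraries of each species. The median log2 fold change of its members was -0.17 in SC and -0.14 in SI, against -0.12 and -0.11 over all genes. Scaling the libraries by the median of ratios moved the median of all genes to -0.0026 in SC and -0.02 in SI, and under it 9 members were higher and 8 lower in SCP, and 5 higher and 3 lower in SIP.

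These counts depended on single libraries. In SC the number of members called was 15 without SCP1, 2 without SCP2, 8 without SCP3, 4 without SCUP1, 10 without SCUP2 and 3 without SCUP3. In SI it was 1 without SIP1, 2 without SIP2, 3 without SIP3, 34 without SIUP1, 2 without SIUP2 and 1 without SIUP3. The calls over all genes moved as well. In SC they ran from 256 of 18,622 without SCUP3 to 1213 of 18,650 without SCUP2, against 1303 of 18,913 with every library. In SI they ran from 94 of 18,050 without SIP1 to 2311 of 18,141 without SIUP1, against 670 of 18,334. The 34 members called without SIUP1, 18 higher and 16 lower in SIP, included all 10 called with every library. They made up 15.7% of the 216 members tested, and 12.7% of all genes passed in the same fit.

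The largest rise was that of Solyc01g059980, which has glucan endo-1,3-beta-D-glucosidase activity among its GO terms. Enzymes of this kind cut callose, the glucan that plants lay down in pollen tube walls and plugs. It stood at 3.20, 3.03 and 4.30 RPKM in SCP, from 967, 899 and 1361 reads, against 0.0250, 0.0293 and 0.237 RPKM in SCUP, from 8, 9 and 79 reads. SCUP3 was nearest to SCP, and the groups did not overlap. The RPKM of Solyc01g059980 was low beside these read numbers because the scaling divides by gene length, and the length used was not checked. The log2 fold change was 2.75 on the log2(RPKM + 0.5) scale, which understates the change of a gene this low in RPKM (standard error 0.27, adjusted p = 0.00565, limma). In SI it had between 3 and 6 reads in each SIP library, against 0, 9 and 1 in the SIUP libraries, and did not meet the condition for testing. In SC it met that condition only through the 3 SCP libraries, so it was not tested when one of them was left out.

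Solyc01g067020, annotated with protein kinase activity and a membrane location, was higher after self-pollination in both species. It stood at 6.97, 9.32 and 9.81 RPKM in SCP, against 1.19, 1.24 and 1.38 in SCUP (log2 fold change 2.37, adjusted p = 0.00445). In SI it stood at 4.17, 3.40 and 2.45 RPKM in SIP, against 1.17, 1.20 and 1.06 in SIUP (log2 fold change 1.20, adjusted p = 0.0441). The unpollinated levels of the species were close together, and the groups within each species did not overlap. The SC call held in all 6 fits with a library left out, whereas the SI call held without SIUP1 only.

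Solyc01g067000, placed by the study's GO terms only in a part of the cell, was the other member that rose in both. It stood at 168, 191 and 187 RPKM in SIP, against 84.2, 61.2 and 60.9 in SIUP (log2 fold change 1.41, adjusted p = 0.00804), and this call held in all 6 fits with a library left out. In SC it stood at 149, 78.2 and 109.7 RPKM in SCP, against 48.8, 39.2 and 56.0 in SCUP (log2 fold change 1.18, adjusted p = 0.0460). That call was lost in each of the 6 fits with a library left out. No member fell in both species and none passed in opposite directions.

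**Figure D3:**
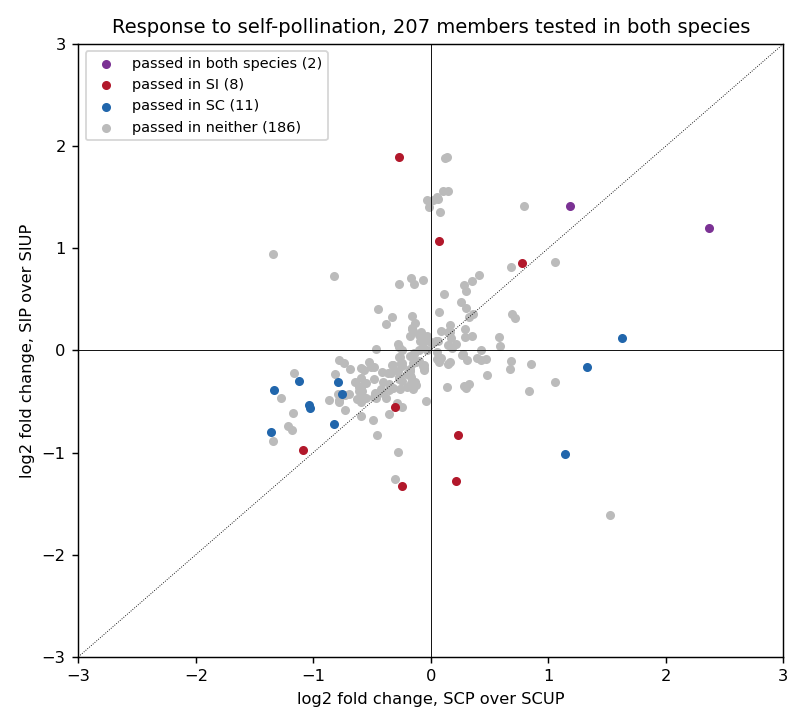
Each point is 1 of the 207 members tested in both species, with the log2 fold change of SIP over SIUP on the vertical axis and of SCP over SCUP on the horizontal axis, coloured by the species in which it passed the test; the dotted line marks equal responses. Of them 2 passed in both species, 8 in SI, 11 in SC and 186 in neither.

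The other members that rose in SC had smaller fold changes. Solyc01g056850 stood at 13.3, 18.1 and 11.7 RPKM in SCP, against 4.83, 3.86 and 4.08 in SCUP (log2 fold change 1.63, adjusted p = 0.0107). Solyc01g068380, which has acid phosphatase activity, stood at 22.9, 30.4 and 23.3 RPKM in SCP, against 11.3, 10.3 and 8.07 in SCUP (log2 fold change 1.33, adjusted p = 0.0152). In both genes the SCP and SCUP libraries were clearly apart. Acid phosphatases release phosphate from organic compounds. Solyc01g066450, with catalytic activity as its only molecular function, rose by a log2 fold change of 1.15 and Solyc01g066040 by 1.04. Solyc01g056850 lost its call without SCUP3, Solyc01g068380 without SCP2 or SCUP3, and the last pair lost theirs without any single library other than SCP1.

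Among the 9 members that fell in SC, Solyc01g067970 had the largest change. It stood at 2.31, 4.43 and 8.56 RPKM in SCP, against 17.4, 15.1 and 17.9 in SCUP (log2 fold change -1.78, adjusted p = 0.0469), and at 0 in all 6 SI libraries. Its SCP libraries were spread but all below SCUP. Solyc01g060250, annotated with mitochondrial electron transport and with responses to abscisic acid, salt and oxidative stress, stood at 7.51, 9.85 and 10.2 RPKM in SCP, against 20.1, 19.4 and 18.3 in SCUP (log2 fold change -1.04, adjusted p = 0.0208). The others were Solyc01g067480, Solyc01g068070, Solyc01g068260, Solyc01g067840, Solyc01g057980, Solyc01g057570 and Solyc01g067390, with log2 fold changes from -1.36 to -0.75, and no function is given for them. Of these 9 calls none held in more than 3 of the 6 fits with a library left out, and each was lost without SCP2, SCUP1 and SCUP3.

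In SI the largest rise was that of Solyc01g066860, at 4.63, 3.61 and 3.34 RPKM in SIP, against 1.06, 0.317 and 0.728 in SIUP (log2 fold change 1.90, adjusted p = 0.0252). All SIP libraries were above all SIUP libraries. Solyc01g058020, which has sucrose alpha-glucosidase (invertase) activity, stood at 2.25, 2.40 and 2.83 RPKM in SIP, against 1.03, 0.740 and 1.003 in SIUP (log2 fold change 1.07, adjusted p = 0.0478). Its neighbour Solyc01g058010 carries the same GO term and stood at 3.31, 4.38 and 4.79 RPKM in SIP, against 0.596, 1.95 and 1.48 in SIUP (log2 fold change 1.40, adjusted p = 0.0664), which did not pass. Sucrose alpha-glucosidases split sucrose into glucose and fructose. Solyc01g066520, among the 10 most abundant members, stood at 586, 570.4 and 435 RPKM in SIP, against 326, 249.5 and 300.1 in SIUP (log2 fold change 0.86, adjusted p = 0.0407).

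The members that fell in SI were Solyc01g066740, Solyc01g057000, Solyc01g066560, Solyc01g067680 and Solyc01g066590, and no function is given for them. Solyc01g066740 had the largest fall, at 3.61, 5.79 and 3.36 RPKM in SIP, against 12.3, 8.18 and 13.6 in SIUP (log2 fold change -1.33, adjusted p = 0.0470). Solyc01g066560 was more abundant, at 51.8, 59.7 and 64.0 RPKM in SIP, against 100.3, 121 and 126 in SIUP (log2 fold change -0.98, adjusted p = 0.0171). In both the groups were apart. Apart from that of Solyc01g067000, each SI call was lost without SIP1, without SIUP2 and without SIUP3.

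**Figure D4:**
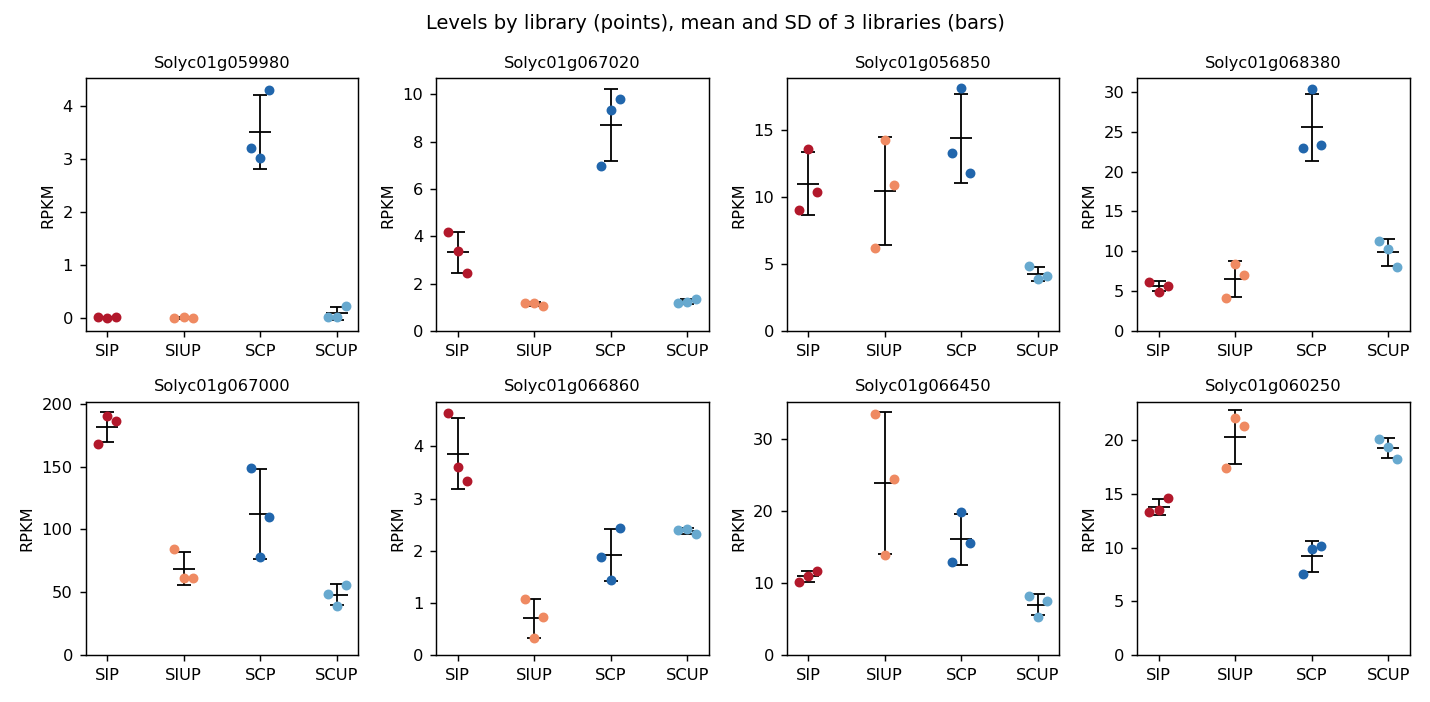
Each panel shows 1 member, with RPKM on the vertical axis and the groups SIP, SIUP, SCP and SCUP on the horizontal axis; points are libraries, and bars the mean and SD of 3 libraries. Solyc01g059980 was at 3.03 to 4.30 RPKM in SCP and below 0.24 elsewhere, whereas Solyc01g067020 and Solyc01g067000 were higher after self-pollination in both species.

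The response differed between the species in 3 of 255 members (1.18%, background 1.04%), tested over the 12 libraries as the SI fold change minus the SC fold change. It was higher in SI for 1 (background 0.252%) and lower for 2 (background 0.784%). Solyc01g059980 gave a log2 difference of -2.73 (standard error 0.30, adjusted p = 0.00494, limma), but it met the condition for testing only through the SCP libraries where it was high. Solyc01g066450 gave -2.16 (adjusted p = 0.0341), with 10.1, 10.97 and 11.6 RPKM in SIP and 33.3, 13.8 and 24.4 in SIUP, against 12.8, 19.8 and 15.5 in SCP and 8.14, 5.28 and 7.49 in SCUP. Within SI alone its fold change did not pass (log2 fold change -1.01, adjusted p = 0.101). Solyc01g066860 gave 2.16 (adjusted p = 0.0222), with 1.89, 1.44 and 2.43 RPKM in SCP and 2.40, 2.41 and 2.31 in SCUP. Without a single library the number of such members ran from 0 to 6, and it was 0 without SCP2, where 29 members had an unadjusted p under 0.05. Over all genes the number passing ran from 32 to 389 in these fits and was 38 without SCP2.

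Genes that appeared only after self-pollination were few. In SI 3 members were above 0 in all 3 SIP libraries and at 0 in all 3 SIUP libraries (0.498%, background 0.222%). They were Solyc01g056390 with 4 reads in all, Solyc01g056650 with 5 and Solyc01g059840 with 3. With 1 to 3 reads in each library, these are levels at which a 0 carries little weight. In SC no member had this pattern (background 0.268%). The opposite pattern was as thin: Solyc01g056910, Solyc01g057540, Solyc01g058630 and Solyc01g066150 were seen in SCUP only within SC (background 0.161%), and Solyc01g058030 in SIUP only within SI (background 0.130%), each with 4 to 8 reads.

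A group of 3 members was high mainly in SCP2, a pattern noticed after the values were seen. Solyc01g067300 stood at 4.30, 151 and 25.4 RPKM in SCP, against 6.996, 7.94 and 12 in SCUP. Solyc01g066470 stood at 6.43, 139.6 and 47.5 RPKM in SCP, against 3.03, 11.7 and 4.66 in SCUP. Solyc01g066460, next to it by number, stood at 2.05, 32.3 and 8.55 RPKM in SCP, against 1.496, 3.76 and 2.45 in SCUP. None of these passed the test of the SC response, with adjusted p of 0.415, 0.168 and 0.260, and SCP1 was within the SCUP range in the last pair and below it in Solyc01g067300. SCP3 was above each SCUP library in all 3. In the same order they were lower in SIP than in SCP by log2 differences of -4.52, -5.42 and -4.09 (adjusted p = 0.00404, 0.000347 and 0.000509, limma). They were picked for high SCP2 values, so these differences are no separate evidence. In SIUP against SCUP the differences were -1.38, -2.71 and -2.46 (adjusted p = 0.296, 0.0209 and 0.0111).

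Many of the tested members differed between the species. In unpollinated styles 131 of 255 (51.4%, background 51.8%) passed, 54 higher and 77 lower in SIUP. Higher calls made up 21.2% of the members against a background of 27.9%, and lower calls 30.2% against 23.8%. The median log2 difference of the members was -0.06, against 0.12 over all genes. Scaling by the median of ratios moved the median of all genes to -0.01 and gave 41 members higher and 88 lower. Without SIUP1, 117 of 255 members passed, 47 higher and 70 lower (9635 of 20,210 genes). Without SCUP2, 114 of 253 passed, 42 higher and 72 lower (9035 of 20,139 genes). At least a 2-fold difference was reached by 85 of the 131, 22 higher in SIUP (8.63% of the members tested, background 13.2%) and 63 lower (24.7%, background 18.0%). These shares were not tested against each other. The 255 include 10 members at 0 in all 6 libraries of the other species. Those met the condition for testing only through the species where they were detected, so a difference in them was largely set by that condition. The background counts hold such genes as well. In pollinated styles 148 (58.0%, background 55.4%) passed, 65 higher (background 30.3%) and 83 lower (background 25.1%) in SIP, or 49 higher and 92 lower with median-of-ratios scaling.

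Of the members that passed, 107 did so in both states (42.0%, against 41.8% of all genes tested). Of these 106 had the same direction, 42 higher and 64 lower in SI, or 99.1% against 99.5% over all genes. The exception was Solyc01g066860, lower in SIUP than in SCUP (log2 difference -1.31, adjusted p = 0.00135) and higher in SIP than in SCP (0.86, adjusted p = 0.0142). Blocks 055 to 066 had 97 of 162 tested members called in the unpollinated comparison (59.9%) and 067 to 068 had 34 of 93 (36.6%), a description that was not tested.

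Among members higher in SIUP, Solyc01g068080 had the largest difference on the log2(RPKM + 0.5) scale, which shrinks the differences of low genes such as those at 0 in SC described further on. It stood at 21.8, 22.2 and 32.2 RPKM in SIP and 25.6, 33.6 and 27.3 in SIUP, against 1.42, 1.88 and 2.77 in SCP and 2.48, 1.55 and 2.24 in SCUP. The log2 difference between SIUP and SCUP was 3.51 (standard error 0.24, adjusted p = 6.96e-07). P and UP libraries overlapped in each species. Solyc01g066740, Solyc01g057000, Solyc01g066640, Solyc01g068270 and Solyc01g066450 were higher in SIUP by log2 differences from 1.64 to 2.79.

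Among members lower in SIUP with a function given, the invertase genes had the largest log2 differences. Solyc01g058010 stood at 0.596, 1.95 and 1.48 RPKM in SIUP, against 32.8, 37.6 and 41.2 in SCUP (log2 difference -4.43, adjusted p = 2.55e-07). Solyc01g058020 stood at 1.03, 0.740 and 1.003 RPKM in SIUP, against 15.6, 17.3 and 23.3 in SCUP (log2 difference -3.74, adjusted p = 6.10e-08). As neighbours with the same function they may share reads, so their separate levels are uncertain. The pectinesterase genes Solyc01g059940 and Solyc01g066360 were lower as well, by log2 differences of -3.22 and -2.69. Solyc01g067460, Solyc01g056360, Solyc01g067370 and Solyc01g065750 were lower by log2 differences from -4.81 to -3.31.

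Some of the members lower in SIUP had no read there. Solyc01g058470 had 0 reads in all 3 SIUP libraries, against 29.1, 41.7 and 35.7 RPKM in SCUP, at least 81.4-fold lower in SIUP, counted against a floor of 3 reads over the group. It had 1 read in each of SIP1 and SIP2, against 8.58, 13.9 and 33.9 RPKM in SCP. Solyc01g055160 likewise had no read in SIUP, against 3.62, 7.78 and 5.25 RPKM in SCUP, at least 76.0-fold lower.

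**Figure D5:**
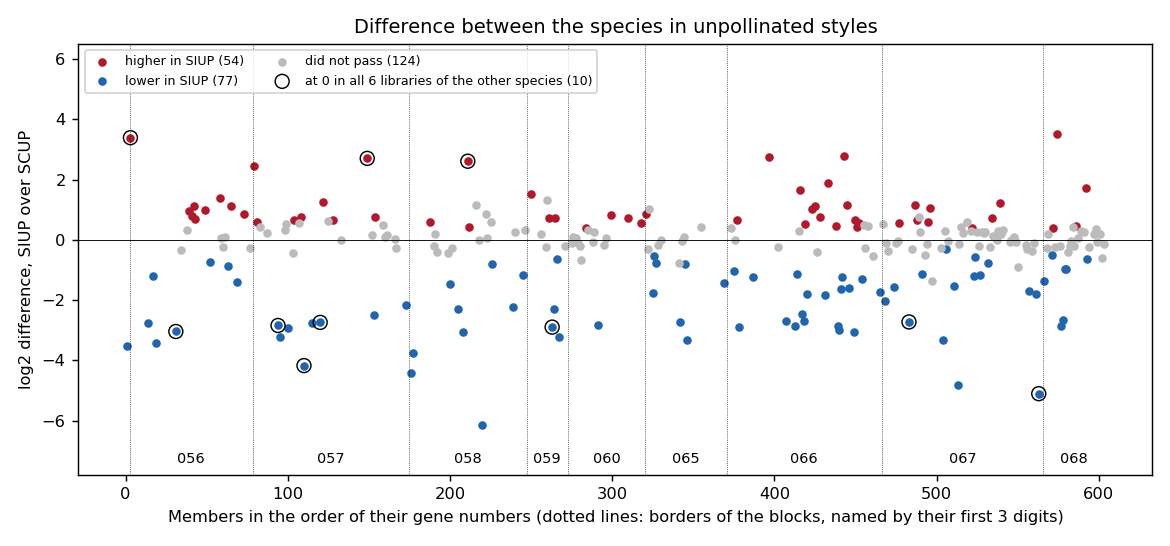
Each point is 1 of the 255 tested members, in the order of gene numbers, with the log2 difference of SIUP over SCUP on the vertical axis; red points passed as higher in SIUP (54), blue as lower (77), and grey did not pass (124). Black circles mark the 10 tested members at 0 in all 6 libraries of the other species, whose plotted differences depend on the pseudocount and are not bounds.

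Some members were detected in only one of the species. Reads in every SI library and none in the 6 SC libraries were found for 7 members (1.16%, background 0.642%), and the reverse for 10 (1.66%, background 1.37%). With any read counted, 52 members (8.62%, background 3.97%) were seen in SI alone, 54 (8.96%, background 6.47%) in SC alone and 317 (52.6%, background 69.8%) in both. A gene absent from one side may be missing, silent or too different in sequence for its reads to align to the tomato reference, and these cannot be told apart.

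The 7 members seen in SI alone were low. Solyc01g056200 had the highest level, at 4.27, 2.98 and 4.33 RPKM in SIP and 5.81, 4.11 and 4.45 in SIUP, from 61 reads in all. Against a floor of 3 reads over the 6 SC libraries it was at least 24.4-fold higher in SI. Solyc01g058380 had 107 reads over the SI libraries, at 1.48 to 3.43 RPKM, and was at least 42.8-fold higher. Solyc01g057730 was at least 9.21-fold higher, and Solyc01g056860, Solyc01g056760, Solyc01g066180 and Solyc01g058220 between 6.01-fold and 12.4-fold higher at the least, with 15 to 31 reads each.

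Of the 10 members seen in SC alone, Solyc01g067970, described above for its fall in SCP, was at least 74.9-fold lower in SI, again with a floor of 3 reads over the 6 SI libraries. Solyc01g057340 stood at 2.47, 10.2 and 9.61 RPKM in SCP and 10.1, 7.87 and 7.83 in SCUP, and was at least 67.4-fold lower in SI. Solyc01g067160 was at least 54.9-fold lower, Solyc01g059900 41.9-fold and Solyc01g056480 39.7-fold. The remaining members, Solyc01g057160, Solyc01g056430, Solyc01g057440, Solyc01g059950 and Solyc01g057970, were lower by at least 2.77-fold to 12.2-fold. These rest on 10 to 44 reads each, whose counting error the floor does not cover. No function is given in the sources used here for the 17 members seen in one species.

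The region also holds a gene of the SCF complex, Solyc01g067120, which the study names as Cul1, the cullin around which such a ligase is built. It was too low for the test, with 10 reads in SIP and 1 in SIUP over 3 libraries each, and 28 in SCP and 20 in SCUP. Its levels were 0.499, 0.336 and 0.341 RPKM in SIP, against 0, 0 and 0.106 in SIUP. Each SIP library was above each SIUP library, and the ratio of reads per library size was 10.8, with a 95% interval of 1.54 to 470 that covers counting error only. Fitted without the filter on low values, the log2 fold change was 0.74 in SI (adjusted p = 0.0560, limma), which did not pass. In SC the levels were 0.869, 0.785 and 1.01 RPKM in SCP, against 0.546, 1.23 and 0.0875 in SCUP (log2 fold change 0.44, adjusted p = 0.550), with overlapping groups. Also without the filter, it was lower in SIUP than in SCUP (log2 difference -0.94, adjusted p = 0.0290). The study chose this gene on the same libraries.

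The other 3 SCF genes that the study names lie outside the region. All 3 passed as higher in SIP than in SIUP and 1 passed as higher in SCP than in SCUP, but the difference between the responses passed for none (adjusted p = 0.0965, 0.858 and 0.944), so the species are not shown to differ. Solyc07g008250, named as one of EBF1/2, F-box proteins known from Arabidopsis to act in ethylene signalling, averaged 118 RPKM in SIP against 24.1 in SIUP (log2 fold change 2.28, adjusted p = 0.00591, limma) and 322 in SCP against 62.2 in SCUP (2.38, adjusted p = 0.00611). Solyc12g009560, the other EBF1/2 gene, gave 1.44 in SI (adjusted p = 0.0284) and 1.16 in SC (adjusted p = 0.0809), where it averaged 306 RPKM in SCP against 128 in SCUP and each SCP library was above each SCUP library. Solyc01g111640, named as Skp1, averaged 15.4 RPKM in SIP against 6.18 in SIUP (log2 fold change 1.25, adjusted p = 0.0278) and 39.0 in SCP against 37.3 in SCUP (0.09, adjusted p = 0.821). The SI calls of this pair were lost without SIP1, SIP2, SIUP2 or SIUP3, and that of Solyc01g111640 also without SIP3. These genes too were chosen by the study from these libraries, and their direction does not count as independent evidence.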

How the data were processed

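Values were RPKM per gene, deposited by the authors: read pairs were trimmed with Trimmomatic 0.32, aligned to the tomato genome with TopHat2, counted per gene with HTSeq and divided by gene length and library total. The genome build, and how reads matching more than 1 place were counted, are not stated in the sources used here. Deposited sheets of read quality, and of the authors' own log2 ratios, p-values and marks of changed genes, were not used. Groups and replicates came from the sample titles. Of 34,725 listed genes, 7 hold error codes and were left out; no column of values was unmatched.

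RPKM steps gave back whole reads for 100% of the 26,562 genes detected in 2 or more libraries (tolerance 0.001 reads). They gave the library totals, the floors of 3 reads and a voom alternative. Voom called 13 members in SC, 9 in SI and 0 for the difference between responses, against 1223, 739 and 28 of all genes. The interval covers counting error only. The floors cover counting error on the side without reads only. The folds given as at least a value take the detected side as measured, and are uncertain where its reads are few. Replicates differed by far more than sampling noise, so none was counted as a repeat.

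log2(RPKM + 0.5) was fitted over the whole table with limma 3.58.1 in R 4.3.3 (empirical Bayes with an intensity trend), over genes reaching 1 RPKM in 3 or more fitted libraries, with Benjamini-Hochberg adjustment over all genes tested and 0.05 as the threshold. The responses were fitted within each species (6 libraries), and the difference between responses and between species over all 12. Other values and figures came from Python 3.11.15 (pandas 2.3.3, numpy 2.4.6, matplotlib 3.10.9). The fitting was tested on simulated reads with the same spread set for every gene and no outlying library. That test does not cover the uneven replicates of these data. Alternatives were other scalings, pseudocounts of 0.1 and 1, no filter or one of 5 RPKM, an unequal-variance test on RPKM, voom, limma without the trend, a block for the replicate number, other sets of libraries in the fit, and leaving out each library.

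Members were named by a rule: the 10 most abundant, the 10 largest rises and falls called in each species, every gene called for the difference between responses, the 10 largest differences each way between SIUP and SCUP, genes seen in P only or in 1 species only, and genes whose function the study gives. The members, lists and rule were chosen with earlier results of these data known. A reference table of another assembly holds 0 of the Solyc identifiers, so functions come from the study's text and GO terms only, and no list of cell markers was used.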

Additional observations from a re-analysis of the deposited data

Results flagged for a closer look

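The response to self-pollination differed between the species in 3 members by a test of that difference over the 12 libraries. Solyc01g059980, the glucan endo-1,3-beta-D-glucosidase gene, gave a log2 difference of -2.73, SI response minus SC response, and averaged 0.0202 RPKM in SIP and 0.0123 in SIUP, against 3.51 in SCP and 0.0972 in SCUP. It met the condition for testing only through the SCP libraries where it was high, so its test is no separate support for the difference. Solyc01g066450 gave -2.16, and with 1 library left out the difference passed only without SIUP1, SIUP2 or SCP1. Solyc01g066860 gave 2.16, and with 1 library left out it passed only without SIUP1, SIUP2, SCP1, SCP3 or SCUP2.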

How the results depend on the processing

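Of 997 alternative fits of single members, 782 kept their direction and their side of the threshold, 215 kept their direction and no longer passed, and 0 reversed. This total pools comparisons of unlike stability. In every alternative, 0 of 16 named calls held in SC, 0 of 10 in SI and 0 of 3 for the difference between responses. For SIUP against SCUP 5 of 20 did. In every left-out fit that tested them, 2, 1, 1 and 20 of these calls held, in the same order. Counts over all genes are given in brackets. The number of members called in SC was 10 with the replicate block (1099 of 18,913). It was 43 of 255 with all 12 libraries in the fit (3674 of 20,277). It was 0 by the unequal-variance test (1 of 18,913), where 37 had an unadjusted p under 0.05. With a library left out it ran from 2 to 15. In SI it was 4 with no filter (513 of 25,605) and 1 with the replicate block (126 of 18,334). It was 0 by the unequal-variance test (3 of 18,334), where 39 had an unadjusted p under 0.05. With a library left out it ran from 1 to 34. For the difference between responses it was 5 with quantile normalization (286 of 20,277) and 5 with no filter (199 of 27,852). It was 1 with a filter of 5 RPKM (139 of 15,898). It was 0 by the unequal-variance test (8 of 20,277) and by voom (28 of 20,277), where 24 and 34 had an unadjusted p under 0.05. It was 2 with the replicate block (125 of 20,277) and ran from 0 to 6 with a library left out. For SIUP against SCUP it was 17 by the unequal-variance test (2034 of 20,277) and ran from 106 to 144 with a library left out. For SIP against SCP it was 23 (2248 of 20,277) and ran from 116 to 150. The replicate block gave 122 and 144 for these (10,265 and 11,018 of 20,277). The causes were not tested. The labels do not say whether equal numbers pair the libraries, which were treated as unpaired. Deviations of equally numbered libraries correlated at 0.35, 0.19 and -0.06 in SC and at 0.15, -0.20 and 0.05 in SI. Libraries with unequal numbers were not compared, so these values do not settle whether the libraries are paired. With a library left out, its group has 2 and limma pools the spread. Depth limits genes with few reads, such as Solyc01g067120.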
